A study of Mus musculus with 10 samples.

Results

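The interleukin-1 family and the inflammasome were examined in sorted tumour-associated macrophages through 10 genes, chosen by name with earlier results of these data known. These were the cytokines Il1a, Il1b and Il18, their antagonists and decoys Il1rn, Il1r2 and Il18bp, the shared receptor subunit Il1rap, and the inflammasome genes Nlrp3, Pycard and Casp1. All 10 were found, each as a locus of its own with a single symbol, among 46956 loci that carry a symbol, and all 10 passed the filter on low counts. The macrophages came from tumours of 4T1 cells, a mouse mammary carcinoma line, injected at the mammary fat pad, with BALB/cJ mice as hosts. One group of 5 samples came from mice that received PBS vehicle. The other group of 5 came from mice given JHU083, a prodrug of the glutamine antagonist 6-diazo-5-oxo-L-norleucine, at 1 mg/kg on days 7 to 13. In both groups the tumours were harvested on day 14, and live cells with CD45, CD11b and F4/80 and without CD8, Ly6C and Ly6G were sorted. The labels do not say whether a sample is 1 mouse or a pool, so p-values measure the spread between these samples.

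Interleukin-1 alpha and interleukin-1 beta are inflammatory cytokines that bind the same signalling receptor, Il1r1, which needs the accessory protein encoded by Il1rap. The family carries its own brakes: Il1rn encodes a receptor antagonist, Il1r2 encodes a decoy receptor that binds ligand and does not signal, and Il18bp encodes a soluble protein that neutralises interleukin-18. Interleukin-1 beta and interleukin-18 are made as inactive precursors that caspase-1 cleaves inside the inflammasome, a complex built from a sensor such as Nlrp3 and the adaptor encoded by Pycard. Myeloid cells, macrophages and neutrophils among them, are a main source of interleukin-1 beta in tumours. Transcript levels say nothing of this cleavage, which acts on the protein.

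Recovered fragment totals were 11147723 to 14575721 in vehicle and 13638171 to 15740487 in JHU083. At these depths 3 fragments correspond to 0.191 to 0.269 CPM (fragments scaled to a common library total), far below the level of each of the 10 genes. The 10 macrophage markers summed to 15800 to 18500 CPM in vehicle and 19300 to 25500 CPM in JHU083, so the labelled cell type was present throughout. Both ribosomal RNA loci (Rn18s-rs5, Gm42418) had a listed value of 0 in 3 samples of the vehicle group and 2 of the JHU083 group, whereas the other 5 samples gave them 2.87% to 5.59% of fragments. Differences were therefore also computed within each of these sets of 5 samples, and a call lost in either set is given beside each gene whose fold change is printed.

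JHU083 samples had a higher level of 1 of the 10 genes and a lower level of 2 (edgeR adjusted p under 0.05). Over all 12500 loci tested, 36.7% passed that threshold, with 18.4% higher and 18.3% lower, so the share of the 10 genes called is close to that of the loci in general. Their median log2 fold change was 0.01, as it was over all loci. What set 1 of them apart was the size of its change: Il1r2 fell by 1.81 on the log2 scale, whereas the other 9 lay between -0.32 and 0.39. Over all loci, 6.94% were called with a change of at least 1 on that scale.

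The promoters of the gene that fell most and of the cytokine pair whose members differed in response are shown first, as the 250 bases before the RefSeq transcription start (GRCm38.p6), read 5′ to 3′ on the strand of the gene. For Il1r2 the first 142 of these bases are shown, because a GENCODE M21 transcript of the gene starts within the other 108. Capitals mark matches to 6 motifs. Both strands were searched for the E-box CACGTG, the AP-1 motif TGANTCA, the interferon-stimulated element (GAAA repeated after a gap of 2 bases) and the C/EBP motif TTGCNNAA. The gene's strand only was searched for the kappaB consensus and the TATA box TATAAA.
Il1r2, chr1:40085843-40085984, plus strand: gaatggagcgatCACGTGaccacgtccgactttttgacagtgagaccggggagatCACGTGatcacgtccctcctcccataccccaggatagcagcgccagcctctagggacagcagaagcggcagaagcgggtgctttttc
Il1a, chr2:129309973-129310222, minus strand: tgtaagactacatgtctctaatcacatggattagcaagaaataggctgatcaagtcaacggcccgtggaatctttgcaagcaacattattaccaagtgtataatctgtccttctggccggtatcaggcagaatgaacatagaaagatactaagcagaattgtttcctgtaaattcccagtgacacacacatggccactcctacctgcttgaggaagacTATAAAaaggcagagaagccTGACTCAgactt
Il1b, chr2:129371140-129371389, minus strand: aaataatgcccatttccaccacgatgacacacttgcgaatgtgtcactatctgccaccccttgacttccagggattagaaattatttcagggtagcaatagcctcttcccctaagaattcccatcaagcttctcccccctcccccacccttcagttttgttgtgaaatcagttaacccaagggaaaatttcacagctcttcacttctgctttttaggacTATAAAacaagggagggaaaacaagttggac

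The Il1r2 window held 2 E-boxes, at -238 to -233 and -195 to -190 from the start, and no match to the other 5 motifs. The annotations differ on where Il1r2 starts: the window ends at 40086092, while the GENCODE M21 transcripts start at 40074079, 40084698, 40084792 and 40085985. The window therefore lies inside the GENCODE gene, and which start these cells used was not tested. Of 32851 RefSeq promoter windows of the same length, 6.02% held an E-box and 0.429% held 2 or more. Il1a and Il1b each had a TATA box about 30 bases before the start (-32 to -27 and -31 to -26), as did 7.59% of windows at any position. They differed in the AP-1 motif, which stood at -12 to -6 in Il1a and in 6.75% of windows, and which had no match in Il1b. Elsewhere, Casp1 held 1 E-box, Il1rn 1 AP-1 motif in 1 of its 3 listed promoters, Nlrp3 1 kappaB match in 1 of its 2, and Il18bp and Pycard 1 C/EBP motif each, with the Il18bp window lying wholly in GENCODE exons of that gene. A match is a run of letters and not evidence that a factor binds there.

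**Figure D1:**
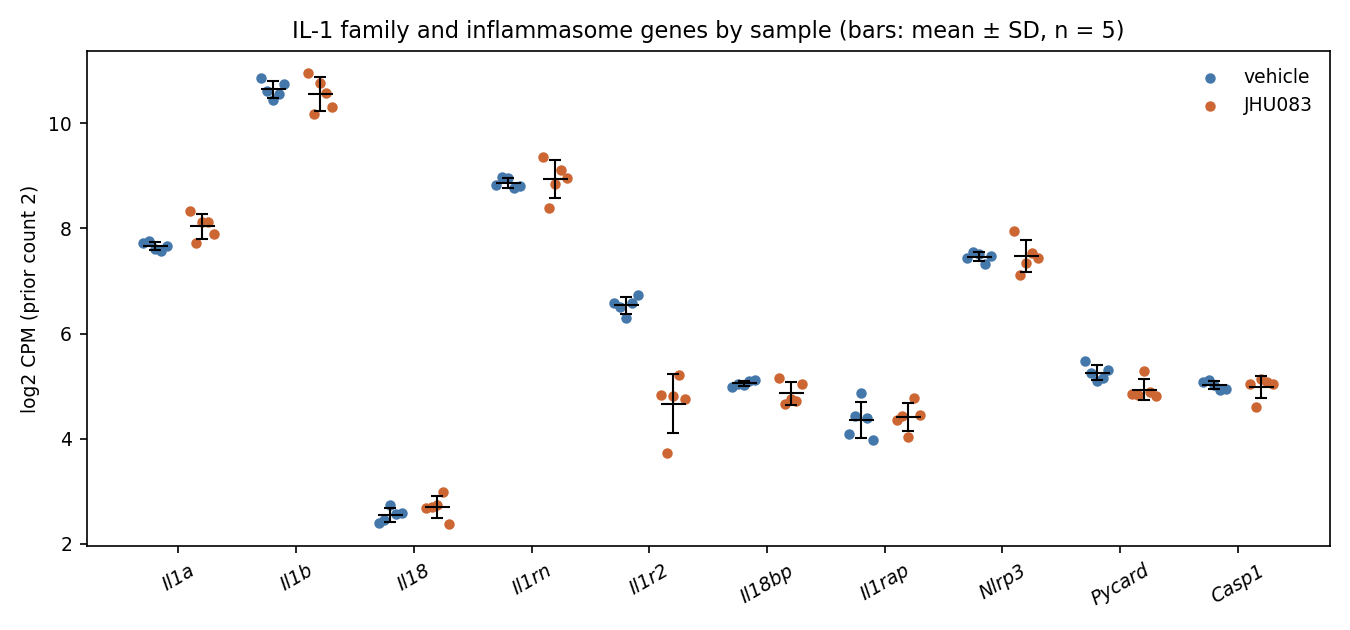
Level of each of the 10 genes by sample on a log2 CPM axis, with vehicle in blue and JHU083 in orange and black bars for the mean ± SD (n = 5). The groups are separate for Il1r2 and overlap for the other 9 genes.

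Il1r2, the decoy receptor, showed the largest change of the 10. In vehicle the 5 samples had 95.3, 91.0, 78.3, 95.2 and 107 CPM, and in JHU083 they had 28.4, 13.1, 28.0, 37.0 and 26.8 CPM (replicates 1 to 5 in each). Every JHU083 sample lay below every vehicle sample, a separation seen for 22.3% of loci tested, and JHU083 replicate 2 was the lowest. Group means ± SD (n = 5) were 93.4 ± 10.3 CPM and 26.7 ± 8.60 CPM, and the fitted log2 difference of -1.81 ± 0.19 (SE, edgeR adjusted p = 1.49e-05) made it 3.51-fold lower. Of the 12500 loci, 152 fell further. The antisense gene Gm16894, which overlaps Il1r2, had at most 8 fragments in a sample, against 191 to 1403 for Il1r2. Without JHU083 replicate 2 the change was -1.64, and within the samples with and without the ribosomal RNA loci at 0 it was -1.79 and -1.77.

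Neutrophils are known to carry much Il1r2, so the 12 neutrophil markers were set beside it. Their summed level was 102 to 120 CPM in vehicle and 96.9 to 146 CPM in JHU083, and the ranges overlapped. Csf3r made up over 50% of this sum, and without it the other 11 markers summed to 43.4 to 59.9 CPM in vehicle and 16.8 to 68.9 CPM in JHU083, with means of 49.3 and 33.6 CPM. Of the 6 markers tested, 1 was higher and 2 were lower, against 18.4% and 18.3% of all loci. S100a9 fell from 16.2 ± 1.98 to 3.61 ± 2.31 CPM and S100a8 from 7.32 ± 1.68 to 2.78 ± 1.10 CPM (SD, n = 5, edgeR adjusted p = 0.000196 and 0.000872). Csf3r, the receptor for granulocyte colony-stimulating factor, rose from 58.4 ± 4.34 to 84.5 ± 10.9 CPM (SD, n = 5, edgeR adjusted p = 0.000663). No marker of the list was at 0 in all 10 samples, and Ly6g reached at most 2 fragments and Camp at most 3. Of the 6 too scarce to be tested, Ngp had a lower mean in JHU083 without overlap (0.888 and 0.0137 CPM). Camp, Ltf and Ly6g had lower means with overlap (0.162 and 0.0254 CPM, 0.856 and 0.511 CPM, 0.0825 and 0.0147 CPM). Mpo and Elane had higher means with overlap (0.107 and 0.335 CPM, 0.0307 and 0.281 CPM). Retnlg (14.2 and 19.4 CPM) and Cxcr2 (2.04 and 3.10 CPM) were not called (edgeR adjusted p = 0.49 and 0.222), although Cxcr2 passed without JHU083 replicate 1 (log2 fold change 0.86). Mmp8, with a lower mean in JHU083 (6.15 and 4.64 CPM), was not called either (log2 fold change -0.41, edgeR adjusted p = 0.0732). Per transcript length, S100a9 stood at 50.1 FPKM (fragments scaled to transcript length and library total) in vehicle, below the 77.1 FPKM of Il1r2 in the same samples. The part of such cells in the Il1r2 result was not tested, and in sorted bulk RNA fewer cells of a type and less RNA per cell cannot be told apart.

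Among the cytokines, Il1a rose and Il1b did not pass the test. Il1a, which is active without caspase-1 cleavage, had 211, 217, 195, 191 and 204 CPM in vehicle and 324, 211, 280, 280 and 239 CPM in JHU083. All JHU083 samples except replicate 2 lay above every vehicle sample. Group means ± SD (n = 5) were 204 ± 10.6 CPM and 267 ± 43.2 CPM, and the gene rose by 0.39 ± 0.10 on the log2 scale (SE, edgeR adjusted p = 0.0078). Within the samples with the ribosomal RNA loci at 0 the change was 0.57 (edgeR adjusted p = 0.0213), and within the others it was 0.25 and did not pass (edgeR adjusted p = 0.207). JHU083 replicate 2, the low sample, is among the latter.

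Il1b was the most abundant of the 10, and 0.44% of loci tested had a higher mean CPM. The vehicle samples held 1860, 1570, 1390, 1500 and 1710 CPM and the JHU083 samples 1980, 1160, 1730, 1530 and 1270 CPM. The JHU083 values surrounded the vehicle values, with the highest and the lowest sample of all 10 in the treated group. The log2 fold change was -0.07 ± 0.14 (SE, edgeR adjusted p = 0.741), with a 95% interval of -0.36 to 0.23. Il18, whose product needs caspase-1 as interleukin-1 beta does, was scarce, with a mean ± SD (n = 5) of 5.72 ± 0.57 CPM in vehicle against 6.41 ± 0.98 CPM after JHU083. Its log2 fold change was 0.16 ± 0.14 (SE, edgeR adjusted p = 0.395), with a 95% interval of -0.14 to 0.47.

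The soluble antagonists did not pass the test. Il1rn, the receptor antagonist, had 456, 502, 496, 434 and 445 CPM in vehicle and 651, 334, 460, 555 and 497 CPM in JHU083, so replicate 1 was the highest and replicate 2 the lowest of all 10 samples. The log2 fold change was 0.10 ± 0.13 (SE, edgeR adjusted p = 0.594, 95% interval -0.19 to 0.38). Il18bp held 33.1 ± 1.21 CPM (SD, n = 5) in vehicle and 29.3 ± 4.59 CPM after JHU083. Its change was -0.17 ± 0.10 (SE, edgeR adjusted p = 0.194, 95% interval -0.39 to 0.04), with JHU083 replicates 2, 3 and 4 below every vehicle sample and replicate 1 above them. Il1rap, the accessory receptor subunit, had 20.8 ± 5.26 and 21.4 ± 3.91 CPM (SD, n = 5), a change of 0.04 ± 0.16 (SE, edgeR adjusted p = 0.863, 95% interval -0.31 to 0.39).

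Of the core inflammasome genes, only Pycard was called. This adaptor, also known as ASC, had 44.1, 38.0, 33.9, 35.5 and 39.1 CPM in vehicle and 28.8, 28.2, 39.0, 29.4 and 28.0 CPM in JHU083. All treated samples except replicate 3 lay below every vehicle sample. Group means ± SD (n = 5) were 38.1 ± 3.89 CPM and 30.7 ± 4.68 CPM, with a log2 difference of -0.32 ± 0.11 (SE, edgeR adjusted p = 0.0325). Leaving out 1 sample at a time, 7 of 10 fits lost this call, namely without vehicle replicates 1, 2 or 5 or JHU083 replicates 1, 2, 4 or 5, where the change ranged from -0.32 to -0.26. Within the samples with the ribosomal RNA loci at 0 the change was -0.15 (edgeR adjusted p = 0.615), and within the others it was -0.46 (edgeR adjusted p = 0.0356).

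The sensor Nlrp3 had 173, 188, 182, 161 and 178 CPM in vehicle and 248, 139, 163, 185 and 172 CPM in JHU083. The treated group again held both the highest and the lowest sample, and the change was 0.04 ± 0.12 (SE, edgeR adjusted p = 0.818, 95% interval -0.22 to 0.30). Casp1, the protease, had 32.3 ± 1.79 and 31.8 ± 4.39 CPM (SD, n = 5). Its change was -0.03 ± 0.10 (SE, edgeR adjusted p = 0.855, 95% interval -0.24 to 0.19).

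Levels per transcript length were compared in the deposited FPKM values. In vehicle the order ran from Il1b (1310 ± 147 FPKM) through Il1rn (241 ± 18.5), Il1a (106 ± 5.65), Pycard (91.6 ± 8.53), Il1r2 (77.1 ± 9.27), Nlrp3 (43.7 ± 2.92), Il18bp (26.3 ± 1.24), Casp1 (23.2 ± 1.34) and Il18 (10.8 ± 1.10) to Il1rap (4.94 ± 1.20 FPKM, SD, n = 5). The sample ranges of Il1a and Pycard touched (99.3 to 114 and 83.8 to 105 FPKM), as did those of Pycard and Il1r2 (68.4 to 92.0) and of Il18bp and Casp1 (24.6 to 27.5 and 21.6 to 24.8). In JHU083 the order was the same except that Il1r2 dropped from the fifth place to the eighth, at 22.3 ± 6.69 FPKM, a level within the range of Il18bp and Casp1. The transcript of the soluble antagonist Il1rn was more abundant than that of the decoy Il1r2 in both groups.

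**Figure D2:**
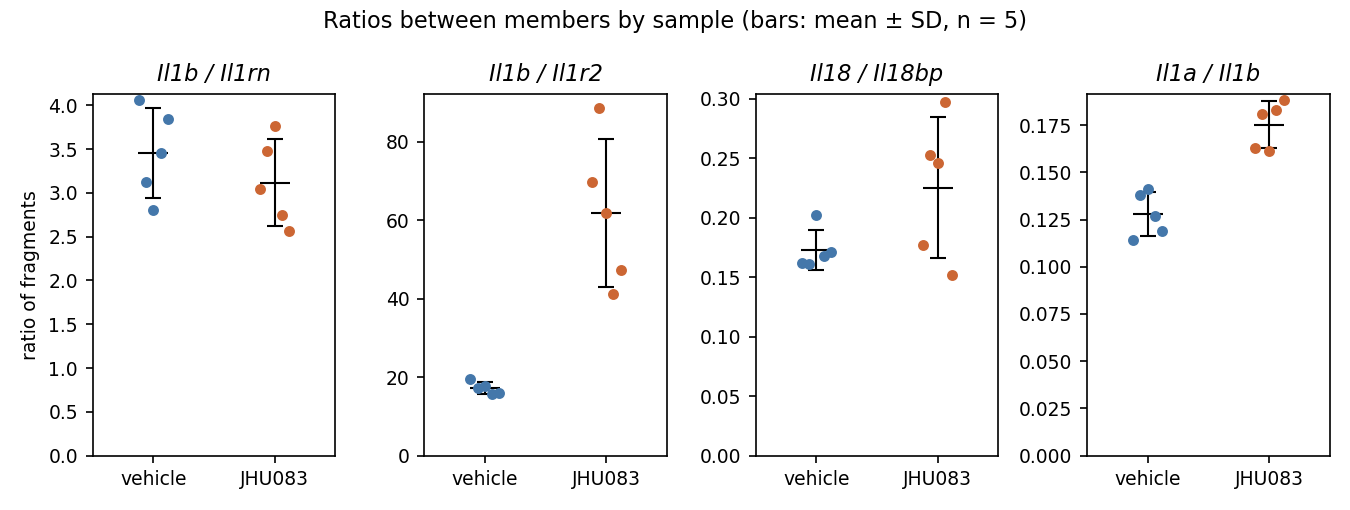
Ratio of the fragments of 2 genes in each sample, for 4 pairs, with black bars for the mean ± SD (n = 5) and all axes starting at 0. Il1b over Il1r2 and Il1a over Il1b separate the groups, and the other pairs overlap.

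The balance between a cytokine and its brake was read as the ratio of their fragments in the same sample, which does not depend on how libraries are scaled. Il1b over Il1r2 was 19.5, 17.3, 17.7, 15.8 and 16 in vehicle and 69.9, 88.7, 61.9, 41.3 and 47.3 in JHU083. The groups did not overlap, and the means differed by 1.79 on the log2 scale. Il1b over Il1rn was 2.80 to 4.06 in vehicle and 2.56 to 3.76 in JHU083, overlapping ranges with a mean difference of -0.15 on the log2 scale. Il18 over Il18bp was 0.161 to 0.202 in vehicle. In JHU083 it was 0.177, 0.253, 0.246, 0.297 and 0.152, with 3 samples above every vehicle sample and 1 below.

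Il1a over Il1b was 0.114, 0.138, 0.141, 0.127 and 0.119 in vehicle and 0.163, 0.181, 0.161, 0.183 and 0.188 in JHU083. The ratio separated the groups although Il1a alone did not. On the log2 scale the ratio was -2.97 ± 0.13 in vehicle and -2.51 ± 0.10 in JHU083 (SD, n = 5), a difference of 0.46. These 4 ratios were described without a test, and each shares a gene with a result above.

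**Figure D3:**
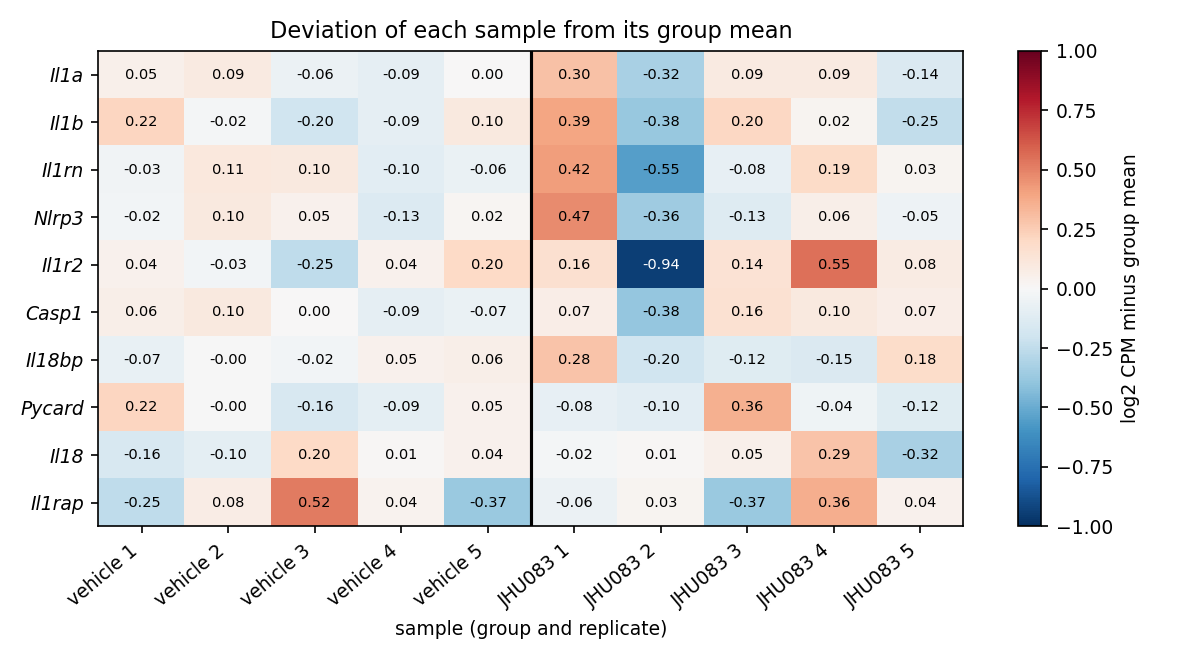
Difference between the log2 CPM of each sample and the mean of its group, for the 10 genes (rows) and 10 samples (columns), red above and blue below the group mean. Il1a, Il1b, Il1rn and Nlrp3 are high together in JHU083 replicate 1 and low together in JHU083 replicate 2.

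The spread between samples was itself unequal. In 9 of the 10 genes the SD of log2 CPM was larger in JHU083 than in vehicle, Il1rap being the exception, and over all loci tested 65.8% had the larger SD in JHU083. Il1rn went from 0.09 to 0.36, Nlrp3 from 0.09 to 0.31 and Il1r2 from 0.16 to 0.56. JHU083 replicate 1 was the highest of its group for 5 genes (Il1a, Il1b, Il1rn, Il18bp and Nlrp3), and JHU083 replicate 2 was the lowest for 7 (Il1a, Il1b, Il1rn, Il1r2, Il18bp, Nlrp3 and Casp1).

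After group means were subtracted, several of the genes varied together across the 10 samples. Pearson's r was 0.93 for Il1rn and Nlrp3, 0.91 for Il1a and Il1b, and 0.86 for Il1a with Il1rn and with Nlrp3. At the other end, Il1rap and Pycard had r = -0.72, and Il18 had no r above 0.44 with any of the others. These values describe libraries that share depth and scaling within each sample. The loci with the highest r to Il1b outside the 10 genes, by the same measure over 10 samples, were Marcksl1 (0.98), Plscr1 (0.97), Smim3 (0.96), Sirpb1a (0.96) and Cnn2 (0.96).

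**Figure D4:**
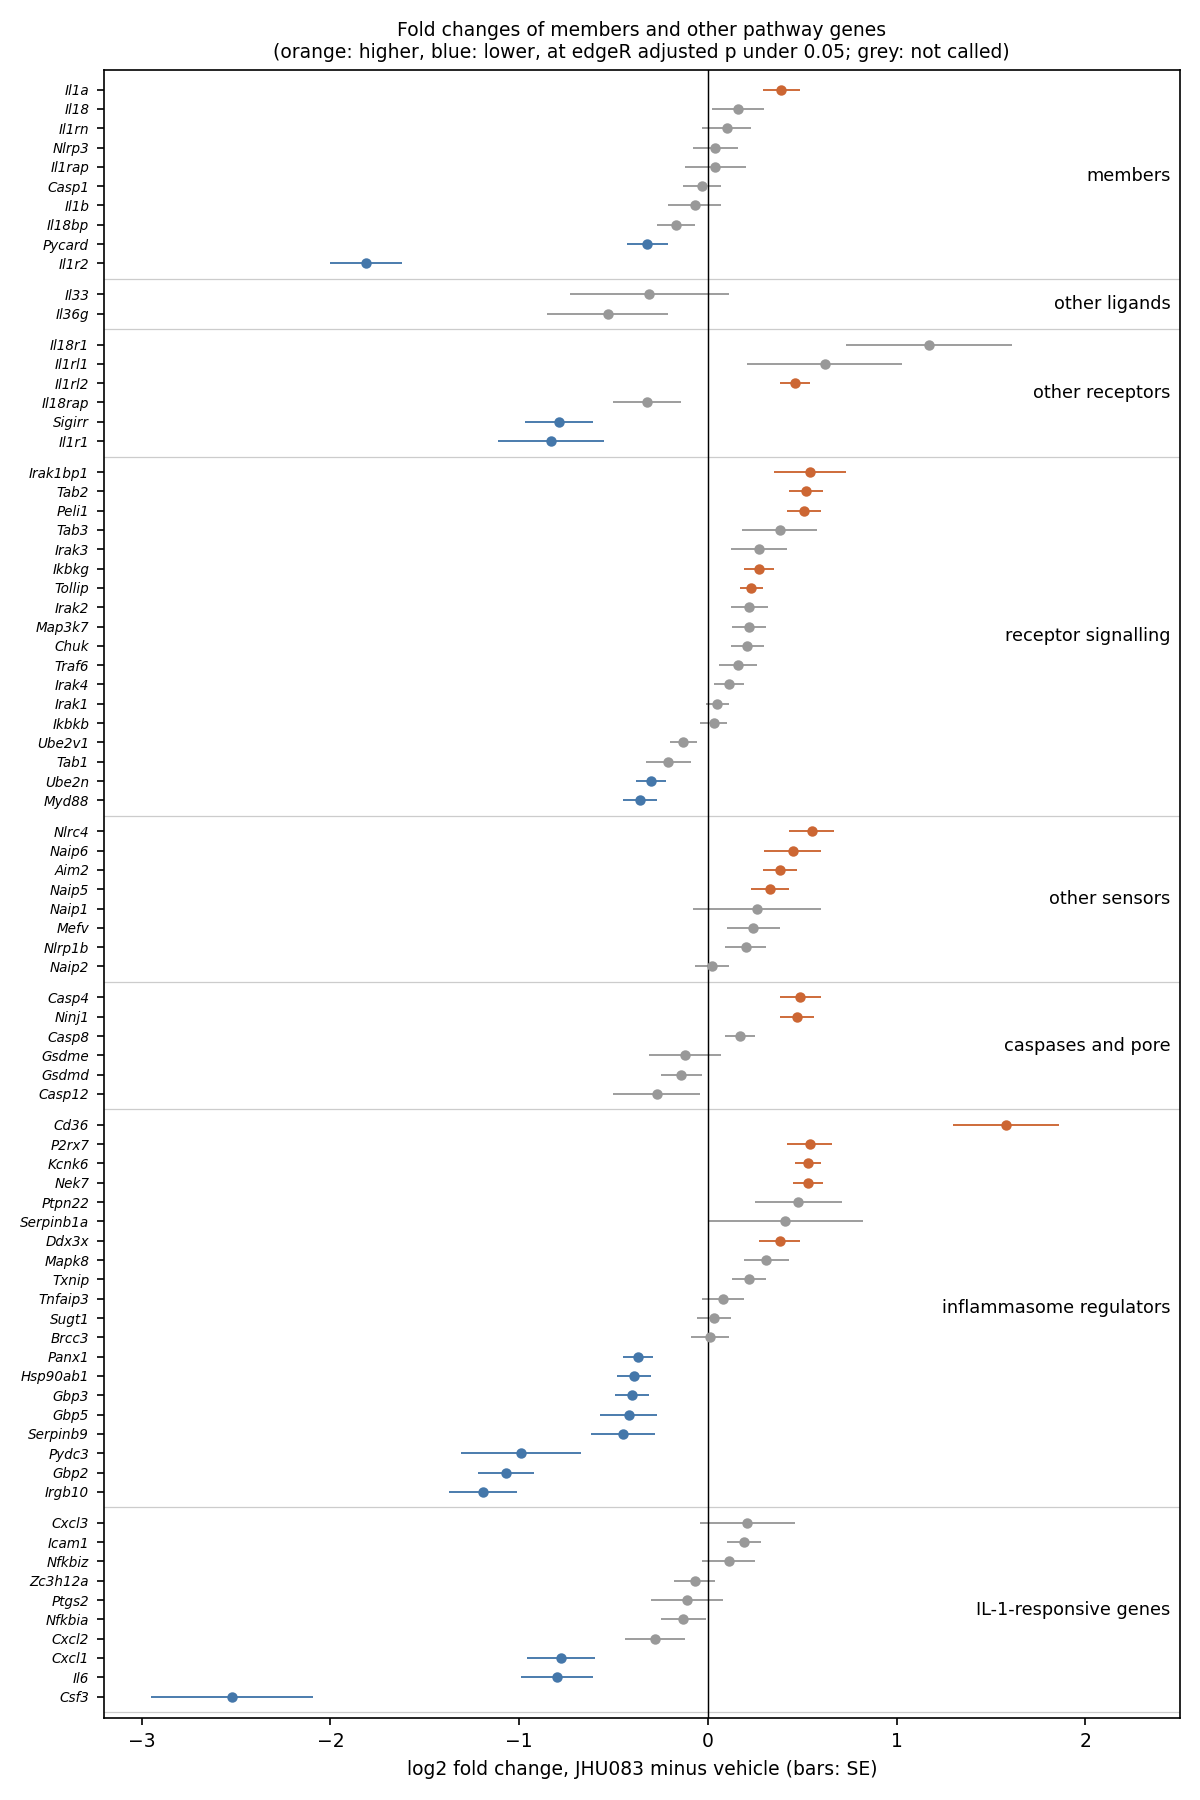
Log2 fold change of JHU083 minus vehicle with its SE (bars) for the 10 genes and for the tested genes of 7 other lists, orange where higher, blue where lower and grey where not called by edgeR. Il1r2 and Csf3 lie farthest to the left and Cd36 farthest to the right.

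Around these genes, 85 further genes of the pathway were read in 7 lists, and 70 could be tested. Of these, 17 were higher and 15 were lower (edgeR adjusted p under 0.05), against 18.4% and 18.3% of all loci, with a median log2 fold change of 0.14. No list was tested as a set. All 32 genes called kept their direction within both sets of samples defined by the ribosomal RNA loci. Within the set with these loci at 0, the call held for 4 (Nek7, Cd36, Gbp2 and Csf3), and within the other set for 20. The remaining ligands were scarce. Il33 and Il36g were tested and not called, and Il36a, Il36b, Il36rn and Il1f10 had at most 2 fragments in any sample.

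Among the other receptors, 1 of 6 tested was higher and 2 were lower, against 18.4% and 18.3% of all loci. Sigirr, an inhibitory receptor of the family, had 6.72, 10.2, 7.24, 6.95 and 6.42 CPM in vehicle and 4.02, 5.62, 4.10, 4.66 and 3.27 CPM in JHU083. The groups did not overlap, and it fell by 0.79 on the log2 scale (SE 0.18, edgeR adjusted p = 0.00342). It did not pass in either set of samples defined by the ribosomal RNA loci, with -0.95 where they were at 0 and -0.64 in the others (edgeR adjusted p = 0.0636 and 0.101). Il1r1, the signalling receptor, was itself low, at 2.65, 7.77, 5.43, 6.52 and 3.13 CPM in vehicle and 2.25, 3.50, 2.39, 3.13 and 3.01 CPM in JHU083. The overlapping values gave a change of -0.83 ± 0.28 (SE, edgeR adjusted p = 0.0313), which ranged from -1 to -0.63 with 1 sample left out and lost its call in 6 of those 10 fits (without vehicle replicates 2, 3 or 4 or JHU083 replicates 1, 4 or 5). The call was also lost with limma-voom (-0.71, adjusted p = 0.0794) and with the status at the ribosomal RNA loci as a covariate (-0.81, edgeR adjusted p = 0.0528). Within the samples with the ribosomal RNA loci at 0 the change was -1.32 and within the others -0.33, and neither passed (edgeR adjusted p = 0.0763 and 0.506). Il1rl2, the interleukin-36 receptor, was the only one of the list called higher, from 57.6 ± 3.54 to 79.4 ± 6.23 CPM (SD, n = 5), a change of 0.46 ± 0.08 (SE, edgeR adjusted p = 0.000463), and did not pass within the samples with these loci at 0 (0.42, edgeR adjusted p = 0.0936).

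Cells other than macrophages also carry Il1r1, among them endothelial cells and fibroblasts. The 6 endothelial markers summed to 123 to 214 CPM in vehicle and 34.1 to 80.6 CPM in JHU083, the 7 fibroblast markers to 103 to 243 and 24.4 to 115 CPM, and the 8 tumour epithelial markers to 279 to 652 and 94.3 to 204 CPM. None of these markers was at 0 in all samples. Lower calls were made for 7 of 7 epithelial, 5 of 7 fibroblast and 1 of 3 endothelial markers tested, against 18.3% of all loci. The epithelial and endothelial sums did not overlap between the groups. The endothelial sum was mostly Pecam1, which fell from 151 ± 32.5 to 52.5 ± 20.2 CPM (SD, n = 5, edgeR adjusted p = 0.00035). The other 5 endothelial markers summed to 11.4 to 15.6 CPM in vehicle and 9.34 to 13.4 CPM in JHU083 and overlapped, and Kdr (-0.15) and Cdh5 (-0.49) were not called (edgeR adjusted p = 0.362 and 0.176). The part of such cells in the changes of Il1r1 and of the genes below was not tested.

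**Figure D5:**
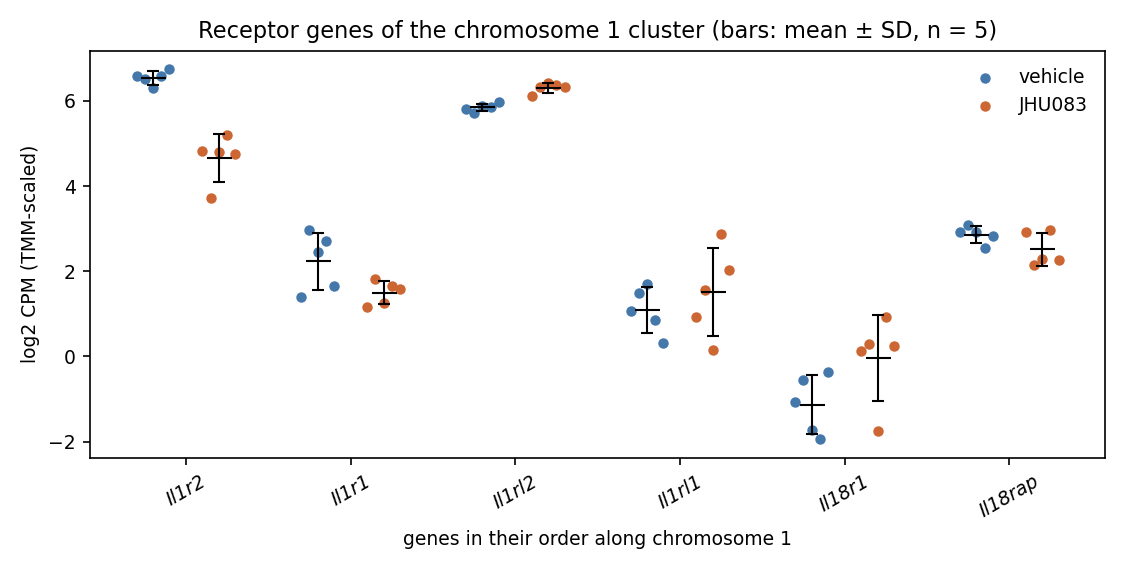
Level of 6 receptor genes in their order along chromosome 1 by sample, on a log2 CPM axis, with vehicle in blue, JHU083 in orange and black bars for the mean ± SD (n = 5). Il1r2 is lower and Il1rl2 is higher in JHU083, Il1r1 was called lower with overlapping values, and the other 3 genes were not called.

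The 6 receptors of this cluster are neighbours on chromosome 1 in GENCODE M21 (GRCm38), all on the plus strand, in the order Il1r2 (40074079 to 40125231), Il1r1 (40225080 to 40317257), Il1rl2 (40324610 to 40367562), Il1rl1 (40429570 to 40465415), Il18r1 (40465552 to 40500854) and Il18rap (40515362 to 40551705). Il1r2 fell and Il1rl2 rose. Il1r1 was called lower with overlapping values, and its call was lost in the fits given above. Il1rl1 (0.62 ± 0.41), Il18r1 (1.17 ± 0.44) and Il18rap (-0.32 ± 0.18) were not called (log2 fold change and SE, edgeR adjusted p = 0.257, 0.0506 and 0.188). Il18r1, with at most 25 fragments in a sample, was at the threshold: it passed with DESeq2 (1.18, adjusted p = 0.0478), without the ribosomal RNA loci (1.17, edgeR adjusted p = 0.0497), within the samples with these loci above 0 (1.84, edgeR adjusted p = 0.0337) and without vehicle replicate 5 (1.37) or JHU083 replicate 3 (1.40). On chromosome 2, Il1a (129299610 to 129309972) and Il1b (129364570 to 129371139) likewise lie side by side on the minus strand, with a call for Il1a alone.

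Downstream of the receptors, 5 of 18 signalling genes were higher and 2 were lower, against 18.4% and 18.3% of all loci. Myd88, the adaptor shared with Toll-like receptors, fell from 138 ± 10.8 CPM (SD, n = 5) to 107 ± 12.5 CPM, a change of -0.36 ± 0.09 (SE, edgeR adjusted p = 0.00539). Ube2n, which with a partner builds the ubiquitin chains of the pathway, fell by 0.30 on the same scale (edgeR adjusted p = 0.00826). Within the samples with the ribosomal RNA loci at 0, Myd88 (-0.22) and Ube2n (-0.21) did not pass (edgeR adjusted p = 0.307 and 0.289), nor did Ube2n in the others (-0.37, edgeR adjusted p = 0.051). Tab2, an adaptor of the kinase encoded by Map3k7, rose by 0.52 ± 0.09 and the ubiquitin ligase Peli1 by 0.51 ± 0.09 (SE, edgeR adjusted p = 0.000705 and 0.00052). Neither passed within the samples with these loci at 0, where Tab2 was 0.40 and Peli1 0.35 (edgeR adjusted p = 0.12 and 0.112). Irak1bp1 rose by 0.54 ± 0.19 (SE, edgeR adjusted p = 0.0336) and lost its call in 5 of the 10 fits with 1 sample left out (vehicle replicates 1 and 2, JHU083 replicates 1, 4 and 5) and in both sets (0.59 and 0.51, edgeR adjusted p = 0.239 and 0.277). With library-size scaling it was 0.46 and with no filter on low counts 0.54, and neither passed (edgeR adjusted p = 0.0563 and 0.0836). The kinases Irak1, Irak2, Irak3 and Irak4 were not called.

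Of 8 sensors tested other than Nlrp3, 4 were higher and 0 were lower, against 18.4% and 18.3% of all loci. Nlrc4, which senses bacterial proteins together with Naip proteins, had 14.7, 21.4, 22.3, 19.1 and 18.4 CPM in vehicle and 27.1, 33.2, 25.0, 26.8 and 28.2 CPM in JHU083. The groups did not overlap, and the change was 0.55 ± 0.12 (SE, edgeR adjusted p = 0.00253). It was 0.41 within the samples with the ribosomal RNA loci at 0 and did not pass (edgeR adjusted p = 0.115). Naip6, Naip5 and the DNA sensor Aim2 rose by 0.45, 0.33 and 0.38 on the log2 scale (edgeR adjusted p = 0.029, 0.0213 and 0.00394), and within those samples by 0.28, 0.20 and 0.26, where none passed (edgeR adjusted p = 0.497, 0.42 and 0.298). Naip6 also missed the threshold within the other samples (0.47, edgeR adjusted p = 0.0521) and without vehicle replicates 4 or 5 or JHU083 replicates 1, 2, 4 or 5, and Naip5 without vehicle replicate 1. Library-size scaling ended the calls of Naip6 (0.37) and Naip5 (0.25) (edgeR adjusted p = 0.0788 and 0.0851). With limma on FPKM, Naip6 (0.27), Naip5 (0.28) and Aim2 (0.39) did not pass (adjusted p = 0.105, 0.051 and 0.0643). The Naip genes are close copies of one another, so fragments can be split between them.

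Casp4, the caspase that responds to cytosolic lipopolysaccharide, rose from 23.4 ± 3.45 to 32.7 ± 3.65 CPM (SD, n = 5). The change of 0.49 ± 0.11 (SE, edgeR adjusted p = 0.00411) stood beside -0.03 for Casp1, its neighbour on chromosome 9 (Casp1 at 5298517 to 5307265, Casp4 at 5308828 to 5336783). Ninj1, which ruptures the plasma membrane late in lytic death, rose by 0.47 ± 0.09 (SE, edgeR adjusted p = 0.00179). Where the ribosomal RNA loci were at 0, Casp4 (0.53) and Ninj1 (0.50) did not pass (edgeR adjusted p = 0.0592 and 0.075), nor did Casp4 in the others (0.42, edgeR adjusted p = 0.105). Gsdmd, the pore-forming substrate of caspase-1, was not called (-0.14 ± 0.11, edgeR adjusted p = 0.328).

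Of 20 regulators of inflammasomes tested, 5 were higher and 8 were lower, against 18.4% and 18.3% of all loci. Those higher were Nek7, P2rx7, Kcnk6, Ddx3x and Cd36, and those lower were Panx1, Hsp90ab1, Gbp2, Gbp3, Gbp5, Irgb10, Pydc3 and Serpinb9. The calls of Gbp5 (-0.42), Serpinb9 (-0.45) and Pydc3 (-0.99) were close to the threshold (edgeR adjusted p = 0.0426, 0.0487 and 0.0263) and did not hold in either set of samples defined by the ribosomal RNA loci. With 1 sample left out, Gbp5 lost its call in 8 of 10 fits (all but those without vehicle replicate 3 or JHU083 replicate 1), Serpinb9 in 8 (all but those without vehicle replicate 4 or JHU083 replicate 5) and Pydc3 in 4 (without vehicle replicates 1 or 3 or JHU083 replicates 1 or 4). Gbp5 also missed the threshold with the covariate (edgeR adjusted p = 0.0651), and Gbp5, Gbp3 and Serpinb9 with limma on FPKM (adjusted p = 0.106, 0.102 and 0.0731), as did Ddx3x with library-size scaling (edgeR adjusted p = 0.0515). Nek7, an Nlrp3 partner, rose from 92.9 ± 8.25 to 134 ± 8.07 CPM, P2rx7, the channel opened by extracellular ATP, from 120 ± 19.1 to 175 ± 23.5 CPM, and the potassium channel gene Kcnk6 from 39.2 ± 0.86 to 56.7 ± 4.45 CPM (SD, n = 5). Their log2 fold changes were 0.53, 0.54 and 0.53 (edgeR adjusted p = 0.000157, 0.00278 and 0.000108). Where the ribosomal RNA loci were at 0, P2rx7 (0.39) and Kcnk6 (0.44) did not pass (edgeR adjusted p = 0.11 and 0.0539). Panx1, a channel that releases ATP, fell by 0.37 and the chaperone Hsp90ab1 by 0.39 on the log2 scale (edgeR adjusted p = 0.00307 and 0.00452), and within those samples they were -0.29 and -0.26 and did not pass (edgeR adjusted p = 0.21 and 0.199). Txnip, Brcc3, Sugt1 and Mapk8, which also act on Nlrp3, were not called (0.22, 0.01, 0.03 and 0.31). Mapk8 was at the threshold (edgeR adjusted p = 0.052) and passed with DESeq2 and limma-voom (adjusted p = 0.0489 and 0.0498) and without vehicle replicate 2 or JHU083 replicates 2 or 3, and Txnip passed without vehicle replicate 5 or JHU083 replicate 3. Cd36, a scavenger receptor, rose by 1.58 ± 0.28 (SE, edgeR adjusted p = 0.000635), from 5.30 to 7.13 CPM in vehicle to 8.23 to 32.8 CPM in JHU083. Among interferon-inducible GTPases, Gbp2 fell by 1.07 (SE 0.15) and Irgb10, listed as Gm12250, by 1.19 (SE 0.18) on the log2 scale (edgeR adjusted p = 0.000123 and 0.000242). GENCODE M21 types Gm12250 as a processed pseudogene, and within the samples with the ribosomal RNA loci at 0 it did not pass (-0.88, edgeR adjusted p = 0.0916). Gbp2, Gbp3 and Gbp5 are similar in sequence, and their counts may share fragments.

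Genes known to respond to interleukin-1 completed the lists, and 3 of 10 tested were lower and 0 were higher, against 18.3% and 18.4% of all loci. Csf3, which encodes granulocyte colony-stimulating factor, had 5.30, 11.4, 6.26, 4.17 and 3.37 CPM in vehicle and 1.77, 1.10, 0.895, 1.45 and 0.131 CPM in JHU083. The groups did not overlap, and it fell by 2.52 on the log2 scale (SE 0.43, edgeR adjusted p = 0.000561). The lowest sample held 2 fragments, and with limma on log2(FPKM + 1) the change was -1.59 (adjusted p = 0.00109). Il6 fell by 0.80 (SE 0.19) and Cxcl1 by 0.78 (SE 0.18), with overlapping values (edgeR adjusted p = 0.00507 and 0.00485). Neither passed within the samples with the ribosomal RNA loci at 0 (-0.81 and -0.53, edgeR adjusted p = 0.0831 and 0.225), nor did Il6 in the others (-0.76, edgeR adjusted p = 0.0687). Cxcl2, Cxcl3, Ptgs2, Nfkbiz, Nfkbia, Icam1 and Zc3h12a were not called, with changes from -0.28 to 0.21. These genes also respond to other signals, and the epithelial and fibroblast marker sums given above had lower means in JHU083 in the same libraries.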

How the data were processed

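RNA from 10 sorted macrophage samples was sequenced from polyadenylated transcripts, per the labels' protocols. The submitters' processing notes name TopHat2 2.1.1 and GRCm38; the counting program and annotation are not given in the sources used here. Per the file headers, the authors deposited raw counts, but the values are not whole, and the column was entered as estimated counts, scaled by the authors in a way the sources used here do not give. They are multiples of 1 step per sample, and division by it gave whole numbers, within 0.02 fragments, for 98.75% to 99.34% of positive values. These were rounded. The other deposited column was read as FPKM, from the values. The 1 locus without a symbol was left out (at most 0.00209% of fragments).

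Loci were filtered with filterByExpr, scaled with TMM and tested in edgeR 4.0.16 (R 4.3.3) by quasi-likelihood, without covariates. Benjamini-Hochberg adjustment ran over all 12500 loci, at 0.05. Log2 CPM has a prior count of 2, and CPM of tested genes uses TMM-scaled library sizes. Marker sums use unscaled totals. Intervals of log2 fold changes are at 95%. On simulated counts for the 12500 loci of this comparison, with 200 changed by 1 on the log2 scale, edgeR recovered 82.5% with 5.17% false calls. In the data 36.7% of loci were called, a far larger share, so these rates need not hold for the calls above.

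Results were recomputed with limma-voom (limma 3.58.1), DESeq2 1.42.0, limma on log2(FPKM + 1), other scalings and filters, the deposited values rounded, the ribosomal RNA loci left out or as a covariate, each sample left out and the replicate number as a block. The fits within samples with and without these loci at 0 were not among the alternatives first listed. The 10 genes and the lists were chosen with earlier results of these data known. Text names the 10 genes, pathway genes with an adjusted p under 0.05, a log2 fold change of at least 0.5 in size and a mean log2 CPM of 1 or more, and the 5 loci most like Il1b; others were named after their values were seen, to complete a list. Of these, the genes given with a fold change of their own, and the tested markers named except Mmp8, were recomputed under the same alternatives. No 2 samples of a group agreed within sampling noise (lowest chi-square per degree of freedom 5.80). Promoters come from RefSeq (GRCm38.p6) and gene positions from GENCODE M21, both by symbol, with all 10 genes matched.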

Additional observations from a re-analysis of the deposited data

Results flagged for a closer look

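The 20 groups of 5 values of the 10 genes were examined for a sample far from the others. Of these, 2 had a gap above Dixon's critical value of 0.71, where chance gives about 1 in 20. In JHU083, replicate 3 had the highest Pycard level, at 5.29 log2 CPM, while the remaining 4 lay between 4.81 and 4.89, a gap of 0.85 of the range. In the same group, replicate 2 had the lowest Casp1 level, at 4.60 against 5.05 to 5.14, a gap of 0.82 of the range. No cause was tested.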

How the results depend on the processing

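Il1r2 kept its direction and its call under all 23 alternatives, from -1.95 to -1.64. Il1a kept both except within the samples with the ribosomal RNA loci above 0 (0.25), and ranged from 0.31 to 0.46 with 1 sample left out. Pycard lost its call with the replicate block (-0.32), with limma on FPKM (-0.25) and within the samples with these loci at 0 (-0.15), and ranged from -0.41 to -0.26 with 1 sample left out. Changes of sign occurred in genes that were not called. Within the samples with these loci at 0 they were Il1b (0.22), Il1rap (-0.08) and Casp1 (0.09), and within the others Il1rn (-0.05) and Nlrp3 (-0.11). Library-size scaling turned Il1rap and Nlrp3 (both -0.04), and Il1rap was also -0.02 with the covariate and -0.01 with limma on FPKM. With 1 sample left out, Il1b ranged from -0.17 to 0.02, Il1rn from -0.01 to 0.21, Il1rap from -0.06 to 0.19, Nlrp3 from -0.10 to 0.12 and Casp1 from -0.06 to 0.06.

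The number of the 10 genes called lower was 1 instead of 2 with the replicate block, with limma on FPKM and within the samples with the loci at 0, and 1 to 2 with 1 sample left out; the number higher was 0 within the other samples. Pathway genes called higher were 11 with library-size scaling, 2 within the samples at 0, and 15 to 26 with 1 sample left out (26 without JHU083 replicate 3). Those called lower were 8 with a filter at 10 CPM, which tests fewer genes, and 2 and 9 within the samples at 0 and above 0. Over all loci, 531 were higher and 585 lower within the samples at 0, and 1276 higher within the others, where fewer samples were compared. Library-size scaling gave 1564 higher and 3141 lower in place of 2296 and 2293, and moved the median of all loci by -0.08. For changes given with no reason, the cause was not tested.

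Same-numbered samples did not deviate together (r = -0.61 to -0.18 over 1000 loci), and 0 of 5 vehicle and 0 of 5 JHU083 samples correlated best with their own number, so the numbers were not taken to pair mice. With the replicate block, 1612 loci were higher and 1757 lower, and beside Pycard the calls of Irak1bp1 (0.53), Tollip (0.23), Ikbkg (0.26), Naip5 (0.34), Naip6 (0.43), Pydc3 (-1.02) and Serpinb9 (-0.48) were lost (edgeR adjusted p = 0.0526, 0.0528, 0.0617, 0.0594, 0.0829, 0.0601 and 0.0817). Tollip and Ikbkg (0.23 and 0.27) also lost theirs with library-size scaling (0.15 and 0.18), with no filter (0.23 and 0.26), within the samples with the ribosomal RNA loci at 0 (0.23 and 0.20, edgeR adjusted p = 0.228 and 0.43) and within the others (0.24 and 0.31, edgeR adjusted p = 0.164 and 0.0918), and Ikbkg with limma on FPKM (0.21). Among pathway genes and markers not called, signs changed for Il1rl1 (-0.37), Gsdmd (0.03) and Retnlg (-0.53) within the samples at 0, for Brcc3 and Sugt1 (-0.05 and -0.09) within the others and with library-size scaling (-0.07 and -0.05), and for Brcc3 with a filter at 10 CPM and with limma on FPKM (both -0.01). With 1 sample left out, Retnlg ranged from -0.31 (without JHU083 replicate 4) to 0.74, Brcc3 from -0.05 to 0.07 and Sugt1 from -0.02 to 0.11. The filter on low counts left 15 pathway genes untested, and Il33, Il36g and Il18r1, which were tested, had at most 25 fragments a sample.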
